A study of Homo sapiens with 6 samples.

Results

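The 12 h time point of SpiD7 was compared with the DMSO control in OVCAR5 cells, a human cancer cell line, by RNA sequencing. The comparison held 3 of the 6 libraries of the series: 2 treated with the vehicle DMSO and 1 treated with 10 μM SpiD7, a spirocyclic dimer, for 12 h. How long the DMSO cultures were kept was not given in the labels. Members were the protein-coding genes with a mean of at least 1 FPKM (fragments per kilobase of transcript, scaled to the mapped fragments of the library, so that levels account for gene length) over the first DMSO library and the 12 h library. There were 11605 such genes among 29982 gene symbols, and 7382 protein-coding genes lay under this minimum. The members nearest to it were RASSF4 and LAMP3, both with a mean of 1.00 FPKM inside the limit, and PDCD1 with a mean of 1.00 FPKM and MESP1 with 0.998 FPKM just outside it. All values were from a single line and a single 12 h library, so differences are given as differences of log2(FPKM + 0.1), and no test was run.

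As background, a cell whose proteins are damaged answers on several fronts. Heat shock factors switch on cytosolic chaperones, which refold proteins or pass them to the proteasome. In the endoplasmic reticulum (ER), unfolded proteins release the sensors IRE1, PERK and ATF6, which raise ER chaperones and degradation factors, and PERK lowers translation while favouring the transcription factors ATF4 and CHOP. ER stress that lasts is known for its link to cell cycle arrest and death.

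The deposited table gave the first DMSO library and the 12 h library side by side on 1 scale, and a second DMSO column that behaved as a mean of both DMSO libraries. The second DMSO library was recovered by removing from that mean the share of the first, 0.529, which was read from the 810 rows where the ratio of that mean to the first library was lowest, so that the second library was taken as 0 there. The sources used here do not describe the column, and all values called recovered rest on this reading. The DMSO libraries differed from each other in many genes: 794 genes were more than 2-fold higher and 535 more than 2-fold lower in the recovered library than in the first. The MIR6723 gene alone took 9.19% of the summed FPKM in the first DMSO library, 25.0% in the recovered library and 6.93% at 12 h. The files used here give no read count per library, and the methods state only an approximate range of reads for each sample. Epithelial markers were abundant in all 3 libraries, with KRT8 between 1670 and 2181 FPKM and EPCAM between 79.1 and 86.0 FPKM. Of the 4 ovarian serous markers, PAX8 reached at most 1.99 and MSLN at most 3.50 FPKM, and WT1 and MUC16 stayed under 1 FPKM in each library. Of 5 gastrointestinal markers CDX2, at 2.77, 2.40 and 4.38 FPKM, was the 1 over 1 FPKM and lay above PAX8 in each library. Of 4 leukocyte markers CD3E was at 0 and PTPRC at most at 0.0315 FPKM, while CD68 was at 25.3, 37.0 and 26.9 FPKM and CD14 at 4.05, 4.93 and 9.30 FPKM. Summed over the 4, the leukocyte markers came to 29.4, 42.0 and 36.3 FPKM, and their part in the results was not tested. The endothelial marker PECAM1 was at 0.732 and 0.937 FPKM in the first DMSO library and at 12 h and at 10.6 FPKM in the recovered one.

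Against the first DMSO library, 806 genes (6.95% of those compared) lay above it at 12 h by more than 2-fold and 437 (3.77%) below it by more than 2-fold. Against the DMSO mean column the counts were 583 (5.02%) and 419 (3.61%). Since this mean holds the first library, the mean cannot be much below 50% of the first library, and this bounds how far a rise against the mean can exceed the rise against the first library. Of the 806 genes, 153 were not above the recovered library at 12 h and 45 were more than 2-fold below it. Of the 437 genes, 71 were not below the recovered library. The stricter call asked for more than 2-fold in the same direction against each DMSO library, and 395 genes (3.4%) were higher and 90 genes (0.776%) were lower on it. These are the genes called higher or lower in what follows, and 111 of the higher and 6 of the lower were past 4-fold against each library. Counts of called genes in a list are to be read beside these shares of 3.4% and 0.776%. Over all genes compared, the first DMSO library gave a median log2 difference of −0.08 and the recovered library one of 0.00066. Of the 395 higher genes 135 were under 1 FPKM in the first DMSO library and so reached the minimum only through the 12 h library, and of the 90 lower genes 18 were under 1 FPKM at 12 h. Such genes had to differ, and their counts are a description. Among genes at the minimum that are not protein-coding, 163 of 1393 were higher and 24 were lower than both.

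**Figure D1:**
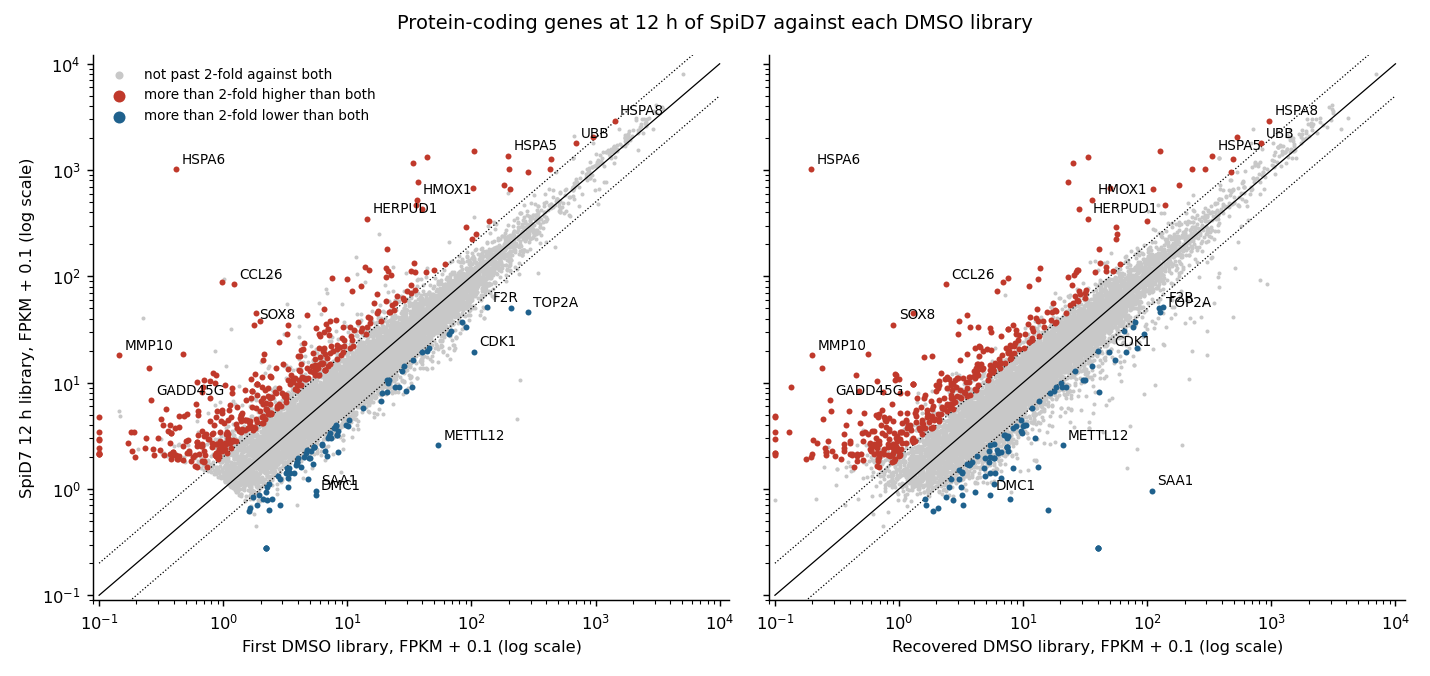
Each point is 1 of 11605 protein-coding genes, with its FPKM + 0.1 at 12 h of SpiD7 (vertical, log scale) against the first DMSO library (left) and the recovered DMSO library (right), and dotted lines mark 2-fold. The 395 genes higher than both reach further from the diagonal than the 90 genes lower than both, and HSPA6 lies farthest from it in both panels.

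Genes were ranked by the log2 difference from the first DMSO library, among called genes above 0 in all 3 libraries. The 15 leading genes higher than both were HSPA6, MMP10, RRAD, CCL26, IL1RL1, MMP1, HSPA1B, HSPA1A, GADD45G, IL11, HERPUD1, ZFAND2A, SOX8, SESN2 and DLL1. They hold heat shock proteins, matrix metalloproteinases, secreted or membrane signalling proteins and stress effectors. Called genes listed at 0 in a library were left out of this ranking, such as SERPINB2 with a difference of 5.09. The 15 leading falls were METTL12, SAA4, SAA2-SAA4, SAA2, DMC1, TOP2A, SAA1, CDK1, H1F0, IRAK1BP1, KCTD4, C21orf58, TNFSF18, CENPF and CKAP2L, among them acute phase proteins and mitotic genes. In FPKM units, the largest rises were those of HSPA8, DNAJB1, HSPA1A, HSPA1B, HSPD1, HSPA5, HSPA6 and UBB, all chaperones or ubiquitin. The largest falls in FPKM units were those of F2R, TOP2A, H1F0, H1FX, CDC25B, TXNIP, CLDN11 and CDK1.

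**Figure D2:**
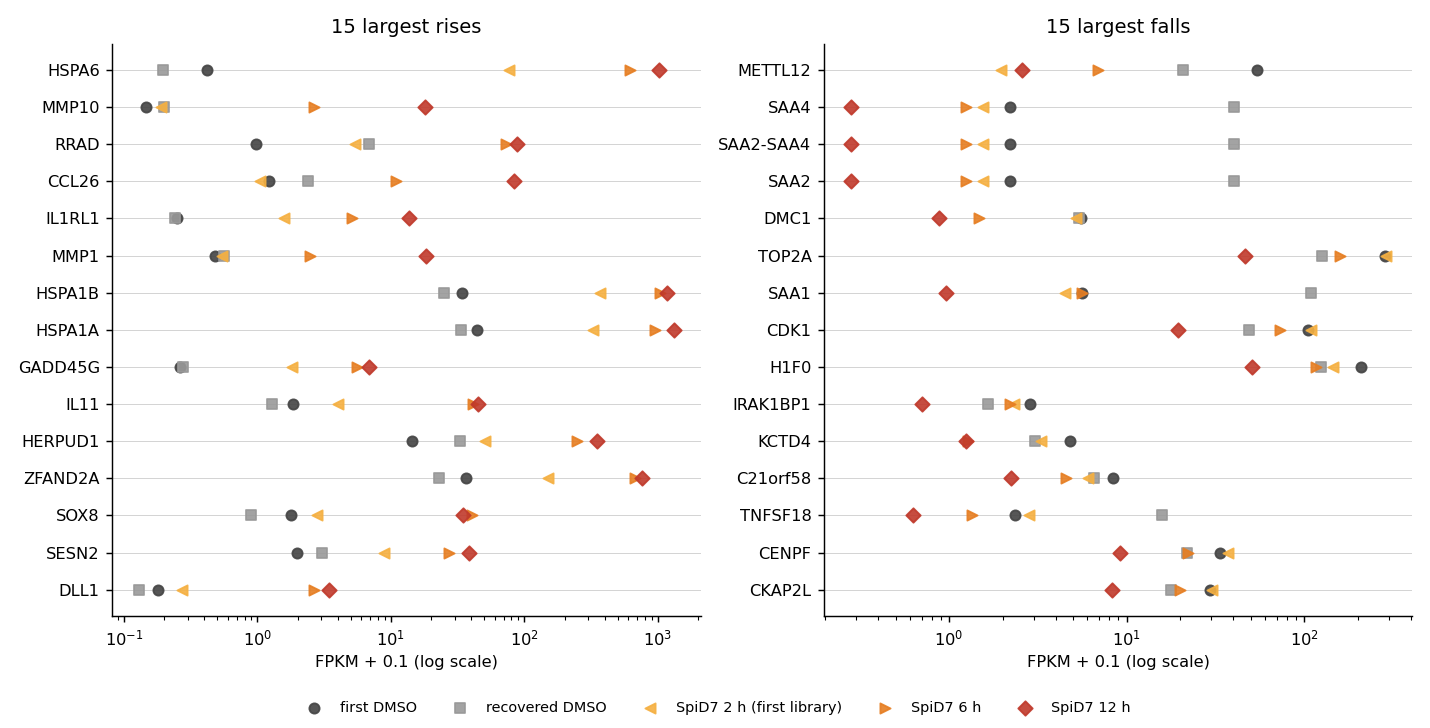
FPKM + 0.1 (log scale) of the 15 genes with the largest log2 rise (left) and fall (right) against the first DMSO library, with 1 point per library. Only genes past 2-fold against both DMSO libraries and above 0 in these and the 12 h library were ranked. Among the rises the 12 h point is the highest in each row but that of SOX8, where the 6 h point is higher, and among the falls the 12 h point is the lowest in each row but that of METTL12, where the 2 h point is lower.

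The cytosolic HSP70 system and the small heat shock proteins, which fold proteins or hold unfolded ones in solution, were the list with the largest median difference, 2.31 relative to the first DMSO library and 2.13 relative to the recovered library. Of its 18 members 14 (77.8%, against 3.4% of all genes compared) were higher than both DMSO libraries. Of the 18, 0 were lower, and 17 were above both by any amount. Of the 14, 2 were under 1 FPKM in the first DMSO library and reached the minimum only through the 12 h library. HSPA6, an HSP70 that is nearly silent without stress, was at 0.315 and 0.0959 FPKM in the first and the recovered DMSO library and at 1024 FPKM at 12 h. This is a log2 difference of 11.27 and 12.35, and at such low DMSO levels its size depends on the pseudocount. The inducible HSP70 genes HSPA1A (44.0 and 33.5 to 1322 FPKM) and HSPA1B (34.02 and 25.1 to 1165 FPKM) reached similar levels. They are near-identical copies, so the split of reads between them is uncertain. The constitutive HSPA8 was the most abundant member, with 1423, 962 and 2916 FPKM, and was 1.04 and 1.60 log2 units higher. SNORD14D, a small nucleolar RNA gene inside HSPA8, was listed at 0 in both DMSO libraries and at 730 FPKM at 12 h.

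Most cochaperones of HSP70 were higher as well. DNAJB1, which delivers substrates to HSP70, went from 105 and 126 FPKM to 1504 FPKM. The nucleotide exchange factors HSPH1 (104 and 50.3 to 683 FPKM) and BAG3 (40.2 and 27.9 to 435 FPKM) were higher than both. DNAJA1 was at 432 and 289 FPKM in DMSO and at 1021 FPKM at 12 h, while DNAJB4 was lower in level, at 8.03 and 16.6 FPKM in DMSO and 38.4 FPKM at 12 h. Among small heat shock proteins, HSPB1 went from 199 and 229 to 1033 FPKM, HSPB8 from 3.23 and 8.11 to 34.8 FPKM and CRYAB from 1.95 and 2.79 to 8.98 FPKM. HSPB1 and CRYAB were late: the 6 h library held 403 and 2.26 FPKM. HSPA1L and HSPA4L were also higher than both. The 4 members that were not higher than both were HSPA4, DNAJB2, DNAJB6 and DNAJB5, the last with 7.59, 8.87 and 7.80 FPKM. The summed level of the list made up 0.484% of all protein-coding FPKM in the first DMSO library, 0.386% in the recovered one and 2.02% at 12 h.

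Promoters of genes higher than both that hold a full heat shock element are shown, because this sequence was much scarcer among all genes. The element was searched as GAANNTTCNNGAA on both strands in the RefSeq promoters of GRCh38.p14, 250 bases before to 50 bases after the start. It was present in 5 of 310 promoters of the higher genes (1.61%), in 0 of 71 of the lower genes and in 24 of all 9578 (0.251%). The 5 genes were CHORDC1, DNAJA1, HSPA6, HSPA8 and SERPINH1, and in DNAJA1 the match lay at or after the start. The other 4 are printed as the 250 bases before the start, 5′ to 3′ on the strand of the gene, with matches in capitals.
HSPA6, chr1:161524290-161524539, plus strand: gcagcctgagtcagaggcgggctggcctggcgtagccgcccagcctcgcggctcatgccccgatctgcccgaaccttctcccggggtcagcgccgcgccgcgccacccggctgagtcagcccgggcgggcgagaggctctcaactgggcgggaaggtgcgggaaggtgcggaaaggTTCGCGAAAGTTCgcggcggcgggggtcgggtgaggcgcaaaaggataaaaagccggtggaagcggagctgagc
HSPA8, chr11:123062137-123062386, minus strand: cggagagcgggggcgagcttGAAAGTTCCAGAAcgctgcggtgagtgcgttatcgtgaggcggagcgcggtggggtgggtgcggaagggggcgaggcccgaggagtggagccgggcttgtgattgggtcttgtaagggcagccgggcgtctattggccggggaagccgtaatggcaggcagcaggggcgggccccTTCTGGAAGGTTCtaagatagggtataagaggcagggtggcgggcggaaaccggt
SERPINH1, chr11:75562003-75562252, plus strand: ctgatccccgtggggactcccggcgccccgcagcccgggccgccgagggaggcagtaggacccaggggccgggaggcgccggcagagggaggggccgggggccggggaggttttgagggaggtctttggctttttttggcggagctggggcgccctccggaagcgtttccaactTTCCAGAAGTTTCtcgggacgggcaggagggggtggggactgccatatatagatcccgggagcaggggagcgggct
CHORDC1, chr11:90223050-90223299, minus strand: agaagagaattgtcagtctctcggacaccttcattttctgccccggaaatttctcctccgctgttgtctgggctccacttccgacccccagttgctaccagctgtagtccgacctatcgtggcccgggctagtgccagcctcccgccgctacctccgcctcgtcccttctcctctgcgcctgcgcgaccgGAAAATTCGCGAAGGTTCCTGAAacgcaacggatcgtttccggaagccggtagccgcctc
HSPA6 and SERPINH1 had 1 match each, HSPA8 had 2 and CHORDC1 had 3 that overlap each other. In HSPA6 the match began 74 bases before the start and in SERPINH1 76 bases before it. Of the HSP70 list 17 of 18 members had a promoter in the table and 4 of them held the element. DNAJB6 held it too and was at 85.7 and 66.1 FPKM in DMSO and 137 FPKM at 12 h, which did not pass 2-fold against the first library.

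SERPINH1, the collagen chaperone HSP47 of the ER, was not on the lists and was singled out by this match. It went from 182 and 180 FPKM to 724 FPKM, with 388 FPKM at 6 h. Other genes higher than both that were picked after their values were seen, for their known tie to protein folding, were DNAJA4 (20.5 and 13.6 to 121 FPKM), the extracellular chaperone clusterin CLU (7.46 and 7.49 to 96.0 FPKM) and CACYBP (101 and 56.1 to 226 FPKM).

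HSP90 and its cochaperones stood apart less clearly, with 1 of 12 members past 2-fold higher than the first DMSO library alone. The DMSO libraries differed in this list, the recovered one being lower than the first by 0.71 log2 units in the median. HSP90AA1 was at 1533, 709 and 2457 FPKM in the first DMSO, recovered DMSO and 12 h libraries, and HSP90AB1 at 959, 689 and 1815 FPKM. The list had a median difference of 0.40 on the first DMSO baseline and 1.27 on the recovered one. Of 12 members 9 were above both DMSO libraries, but CHORDC1, a zinc-binding cochaperone with 108, 56.6 and 248 FPKM, was the only 1 past 2-fold against each. The TRiC chaperonin, which folds actin and tubulin, had a median of −0.14 and 0.44 with 0 of 8 members called. In mitochondria, HSPD1 (HSP60) was at 960, 529 and 2043 FPKM and was called higher, its partner HSPE1 at 661, 378 and 1311 FPKM missed the limit against the first library with 0.99, and the median over 12 mitochondrial chaperones and proteases was 0.17 and 0.39.

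Genes of the ubiquitin pathway were split. ZFAND2A, a heat-inducible partner of the proteasome, was at 36.7 and 23.0 FPKM in DMSO and at 766 FPKM at 12 h. UBB, a gene of ubiquitin itself, went from 692 and 823 to 1799 FPKM. Of 12 stress ubiquitin genes 3 (25%, against 3.4% of all genes compared) were higher than both and 0 were lower. The proteasome itself showed small differences, with a median of 0.14 and 0.35 over 32 subunits and 0 called. Of these subunits 22 were above both DMSO libraries, the farthest being PSMD12 at 91.3, 65.5 and 151 FPKM.

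Among ER chaperones HSPA5 (BiP), the ER member of the HSP70 family, had the largest rise in FPKM units. It was at 196 and 335 FPKM in DMSO and at 1370 FPKM at 12 h, 2.80 and 2.03 log2 units higher, and at 634 FPKM at 6 h. HSP90B1, the ER form of HSP90, went from 286 and 471 to 964 FPKM, DNAJB9 from 3.15 and 8.61 to 28.5 FPKM and SDF2L1 from 27.8 and 31.2 to 63.1 FPKM. These 4 of 21 members (19.05%, against 3.4% of all genes compared) were higher than both and 0 were lower, and 13 were above both by any amount. The median was 0.61 relative to the first DMSO library and 0.20 relative to the recovered library. CALR, at 393, 669 and 598 FPKM, lay between the DMSO libraries, and the PERK-inhibiting cochaperone DNAJC3, at 10.9, 13.05 and 22.4 FPKM, was above both without passing 2-fold against the recovered one. DNAJC10, a reductase of the ER, was at 32.7 and 33.1 FPKM in DMSO and at 20.6 FPKM at 12 h.

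The ER stress element, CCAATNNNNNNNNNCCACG on either strand, is bound by ATF6 with NF-Y. It was found in 2 of 310 promoters of the higher genes (0.645%) and in 14 of all 9578 (0.146%). Both belonged to ER chaperones, and 6 of the 20 ER chaperone promoters in the table held it. The promoters of the 2 called genes are shown, while the other 4 belong to genes that were not called, and DNAJB9, which was called, is not among the 6.
HSPA5, chr9:125241344-125241593, minus strand: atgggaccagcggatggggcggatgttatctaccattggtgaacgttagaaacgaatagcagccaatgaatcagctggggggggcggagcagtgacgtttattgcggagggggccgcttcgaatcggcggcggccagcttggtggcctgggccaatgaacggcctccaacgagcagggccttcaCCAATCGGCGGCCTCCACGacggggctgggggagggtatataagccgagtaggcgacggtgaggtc
HSP90B1, chr12:103930160-103930409, plus strand: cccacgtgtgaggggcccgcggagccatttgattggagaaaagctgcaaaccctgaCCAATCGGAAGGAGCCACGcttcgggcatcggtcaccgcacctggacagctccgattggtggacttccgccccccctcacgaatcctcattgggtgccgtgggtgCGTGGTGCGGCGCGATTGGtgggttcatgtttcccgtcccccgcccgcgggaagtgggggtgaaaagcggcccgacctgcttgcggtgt
HSPA5 had 1 match that began 66 bases before the start and HSP90B1 had 2, on opposite strands.

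Of ER-associated degradation, which exports faulty proteins for destruction, 1 of 21 genes (4.76%) was called higher, near the 3.4% of all genes compared. HERPUD1, a membrane scaffold of this machinery, was at 14.2 and 33.0 FPKM in DMSO, 247 FPKM at 6 h and 348 FPKM at 12 h, or 4.60 and 3.39 log2 units higher. The list as a whole had a median of 0.25 and 0.12, and SELK (30.5, 52.3 and 59.9 FPKM) was next against the first library. The COPII coat and the translocon, which carry secretory proteins, had a median of 0.08 and 0.17 with 0 of 24 called.

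In the ATF4-CHOP axis 5 of 17 genes (29.4%, against 3.4% of all genes compared) were higher than both and 0 were lower. The median was 1.51 on the first DMSO baseline and 0.65 on the recovered one. DDIT3, which encodes CHOP, was at 13.9 and 46.0 FPKM in DMSO and at 124 FPKM at 12 h, below its 202 FPKM at 6 h. PPP1R15A (GADD34), the subunit that reverses the translation block, went from 35.5 and 139 to 468 FPKM. TRIB3, an inhibitor of ATF4 and AKT, was at 12.8, 11.1 and 81.9 FPKM, and SESN2, a stress sensor that restrains mTORC1, at 1.88, 2.93 and 38.3 FPKM. CHAC1, which degrades glutathione, went from 0.734 and 2.06 to 12.3 FPKM, less than its 31.0 FPKM at 6 h. It reached the minimum only through the 12 h library. ATF4 itself was at 152, 201 and 324 FPKM and did not pass 2-fold against the recovered library. DDIT4, at 21.1, 49.3 and 71.7 FPKM, was likewise above both. ATF3 and CEBPB lay between the DMSO libraries: ATF3 was at 1.06 and 98.8 FPKM in DMSO and 31.7 FPKM at 12 h, and CEBPB at 12.1 and 27.8 FPKM in DMSO and 24.7 FPKM at 12 h.

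The sequence TGATGCAA on either strand, the composite site of C/EBP and ATF factors, was present in 4 of 310 promoters of the higher genes (1.29%), in 0 of 71 of the lower genes and in 43 of all 9578 (0.449%). HERPUD1 and CHAC1 were among the 4 and are shown as the only ones of them described here by name. Of the ATF4-CHOP list 15 of 17 members had a promoter in the table, and 1 of them held the sequence. MARS, a cytosolic aminoacyl-tRNA synthetase, held it too and was not called, at 44.8 and 34.6 FPKM in DMSO and 31.5 FPKM at 12 h.
HERPUD1, chr16:56931892-56932141, plus strand: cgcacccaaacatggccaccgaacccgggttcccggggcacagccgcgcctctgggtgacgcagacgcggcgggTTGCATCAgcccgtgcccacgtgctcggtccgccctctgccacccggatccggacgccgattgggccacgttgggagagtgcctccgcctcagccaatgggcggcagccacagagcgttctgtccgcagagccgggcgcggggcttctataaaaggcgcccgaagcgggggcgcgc
CHAC1, chr15:40953221-40953470, plus strand: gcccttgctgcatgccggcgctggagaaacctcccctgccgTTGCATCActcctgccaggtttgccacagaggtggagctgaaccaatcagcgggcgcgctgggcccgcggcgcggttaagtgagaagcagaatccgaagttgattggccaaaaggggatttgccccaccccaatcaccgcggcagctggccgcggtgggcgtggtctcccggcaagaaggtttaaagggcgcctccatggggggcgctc
The palindrome TGACGTCA was in 8 of 310 promoters of the higher genes (2.58%) and in 323 of all (3.37%). The AP-1 site TGACTCA was in 23 of 310 promoters of the higher genes (7.42%), among them HSPA6, IL11, DDIT3 and BAG3, in 0 of 71 of the lower genes and in 296 of all (3.09%). TGACNNNGC, the antioxidant element, can overlap an AP-1 site and was in 18.1% of the higher, 8.45% of the lower and 15.2% of all promoters. The sterol element TCACNCCAC was in 0.968%, 2.82% and 1.02%.

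Of further stress genes that the study names, XBP1, ERN1, EIF2AK3 and TSPYL2 lay above both DMSO libraries without passing 2-fold against the recovered one. XBP1, the target of IRE1 splicing, was at 20.2, 49.5 and 82.3 FPKM. ERN1, which encodes IRE1, was at 1.90, 3.89 and 6.42 FPKM, and EIF2AK3, which encodes PERK, at 8.12, 12.6 and 18.8 FPKM. TSPYL2 was at 6.00, 29.4 and 44.6 FPKM. WIPI1, an autophagy gene, was between the DMSO libraries with 3.29, 9.56 and 7.56 FPKM.

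Of the genes downstream of ATF4 in amino acid supply, 1 was called. SLC3A2, the heavy chain of several amino acid transporters, was at 204 and 112 FPKM in DMSO and at 668 FPKM at 12 h, and was the only 1 of 11 transporters called. Of 14 enzymes of serine, asparagine and one-carbon metabolism 0 were called, with 6 above both DMSO libraries and 6 below both by any amount. Above both were ASNS at 28.9, 13.3 and 38.4 FPKM and CTH at 4.11, 10.3 and 13.3 FPKM. MTHFD1, at 147, 70.8 and 65.5 FPKM, was below both. The 20 cytosolic aminoacyl-tRNA synthetases had a median of −0.12 and 0.31 with 0 called.

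Of 21 NRF2 targets and enzymes of glutathione and thioredoxin, 2 (9.52%, against 3.4% of all genes compared) were higher than both. HMOX1, which breaks down haem, was at 36.4 and 35.8 FPKM in DMSO and at 525 FPKM at 12 h, with 3.85 and 3.87 log2 units. OSGIN1 went from 13.1 and 11.6 to 32.3 FPKM. NQO1, a classical NRF2 target, was at 265, 204 and 233 FPKM and lay between the DMSO libraries, and the list median was 0.20 and 0.22. The metallothioneins, which bind zinc and copper, had 0 of 5 called, and MT2A was at 996, 682 and 656 FPKM.

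Of 25 autophagy genes 1 (4%) was higher than both, near the 3.4% of all genes compared. It was the LC3 gene MAP1LC3B, at 21.05, 52.4 and 112 FPKM. GABARAPL1 (3.19, 29.2 and 54.4 FPKM) and the receptor SQSTM1 (197, 571 and 605 FPKM) were above both DMSO libraries but close to the recovered one. The list median was 0.46 relative to the first DMSO library and −0.04 relative to the recovered library.

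In cholesterol synthesis, HMGCS1, which makes the precursor of the pathway, was at 14.97 and 27.7 FPKM in DMSO and at 115 FPKM at 12 h. It was the 1 of 24 genes called (4.17%, near the 3.4% of all genes compared). SQLE, at 158, 217 and 127 FPKM, was below both. INSIG1, a feedback brake of the pathway, was at 2.97, 22.1 and 28.5 FPKM. The list median was 0.32 and 0.06. Of 11 fatty acid genes ACSL3, with 35.0, 32.3 and 75.0 FPKM, was called, and of 10 polyamine genes 0 were, with ODC1 at 266, 122 and 465 FPKM.

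**Figure D3:**
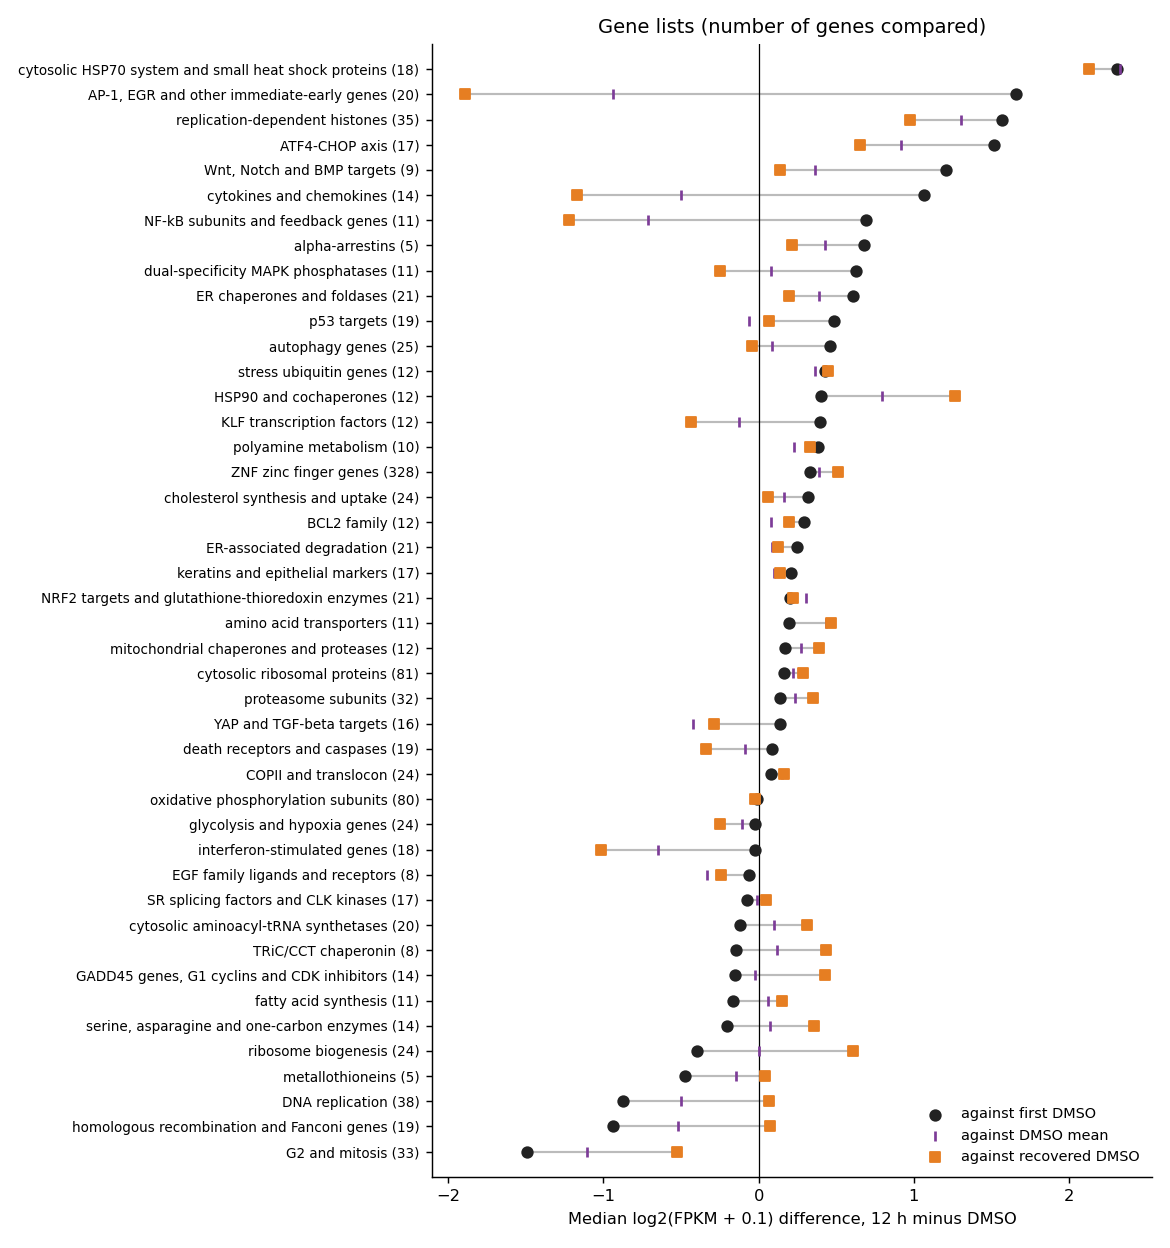
Median log2(FPKM + 0.1) difference of 12 h minus DMSO for each of the 44 gene lists, against the first DMSO library (circles), the DMSO mean (ticks) and the recovered DMSO library (squares), with the number of genes compared in parentheses. The HSP70 list keeps a median above 2 on all baselines, whereas immediate-early genes, cytokines and NF-kB genes change sign between them.

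In FPKM units, several genes for secreted proteases had most of their difference after 6 h. On the log2 scale MMP10 differed by 6.96 from the first DMSO library and by 2.78 between 6 h and 12 h. MMP10 was at 0.0449 and 0.1001 FPKM in the first and the recovered DMSO library, at 2.54 FPKM at 6 h and at 17.9 FPKM at 12 h. MMP1, interstitial collagenase, was at 0.378, 0.464, 2.37 and 18.3 FPKM in the same order. MMP3 (10.8, 6.09, 16.6 and 73.6 FPKM) and MMP12 (0.876, 1.26, 1.65 and 5.39 FPKM) followed the same course. These 4 genes lie within 1 cluster on chromosome 11, from MMP10 at chr11:102770502-102780628 to MMP12 at chr11:102862736-102874982 (RefSeq, GRCh38.p14). Of 9 metalloproteinase genes of that cluster, which was looked at after the values were seen, these 4 reached the minimum and all 4 were higher than both, but 3 of them were under 1 FPKM in the first DMSO library and reached it only through the 12 h library. MMP13 lay under the minimum with 0.111, 0.0934 and 0.731 FPKM, and MMP7 was also under it with 0.378 and 2.87 FPKM in DMSO and 0 at 12 h.

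CCL26, an eosinophil chemokine, went from 1.12 and 2.29 FPKM to 10.8 FPKM at 6 h and 83.9 FPKM at 12 h. IL1RL1, the receptor of interleukin 33, was at 0.151, 0.140, 4.97 and 13.5 FPKM in that order. IL11, a cytokine of the interleukin 6 family, was at 1.74 and 1.19 FPKM in DMSO, 41.1 FPKM at 6 h and 44.9 FPKM at 12 h, with little added after 6 h. These were the 3 of 14 cytokine and chemokine genes that were higher than both (21.4%, against 3.4% of all genes compared). Of the 14, 6 lay between the DMSO libraries and 2 below both. IL1RL1 reached the minimum only through the 12 h library. CCL2 was at 31.8, 493 and 41.3 FPKM and IL8 at 0.418, 189 and 2.49 FPKM in the first DMSO, recovered DMSO and 12 h libraries. The median of the list was 1.06 on the first DMSO baseline and −1.17 on the recovered one.

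Some surface and squamous genes of several families, picked after their values were seen, were higher than both. Of the ligands of the natural killer cell receptor NKG2D, 3 of 7 that reached the minimum were called: ULBP1 (2.29, 3.901 and 11.4 FPKM), ULBP3 (10.6, 6.54 and 27.5 FPKM) and RAET1L (0.572, 0.510 and 3.37 FPKM). MICA, at 33.5, 23.5 and 44.1 FPKM, and MICB, at 4.10, 7.38 and 11.6 FPKM, were above both without passing 2-fold against each. Of the clade B serpins, SERPINB2, which inhibits urokinase, was listed at 0 in both DMSO libraries and at 3.31 FPKM at 12 h, and SERPINB5 (1.56, 1.13 and 3.902 FPKM) and SERPINB8 (1.62, 1.89 and 8.21 FPKM) made up the 3 called of 7 compared. Of 15 kallikrein proteases only KLK6 (5.86, 2.89 and 28.6 FPKM) and KLK10 (1.40, 1.04 and 4.34 FPKM) reached the minimum, and both were called. KRT6A, a keratin of stressed epidermis, was at 0.592, 0.0348 and 8.93 FPKM and was the 1 of 17 keratin and epithelial genes called. Of the 17, 9 were above both by any amount and 4 below both. Below both were KRT17 (2.24, 3.62 and 1.94 FPKM) and KRT15 (1.37, 1.43 and 0.986 FPKM), among others. SBSN, a protein of cornified epithelium, went from 0.781 and 0.350 to 11.6 FPKM. RAET1L, SERPINB2, KRT6A and SBSN were under 1 FPKM in the first DMSO library and reached the minimum only through the 12 h library.

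Immediate-early genes gave the largest disagreement between the DMSO libraries, and no direction can be given for most of them. FOS was at 2.33 FPKM in the first DMSO library, 371 FPKM in the recovered one and 98.1 FPKM at 12 h. FOSB was at 0.127, 156 and 40.4 FPKM, EGR1 at 5.77, 346 and 56.6 FPKM and NR4A1 at 0.753, 230 and 19.98 FPKM. Against the first library 15 of 20 genes were past 2-fold higher, but IER5, with 9.92, 13.1 and 93.6 FPKM, was the 1 gene past 2-fold against both. The median was 1.66 on the first DMSO baseline and −1.89 on the recovered one. MYC, at 104, 277 and 361 FPKM, was above both. The dual-specificity phosphatases, which switch off MAP kinases, and the NF-kB genes showed the same split, with 0 of 11 and 0 of 11 called. DUSP1 was at 11.6, 330 and 154 FPKM and TNFAIP3, which limits NF-kB, at 1.74, 49.0 and 6.83 FPKM. Of 12 KLF factors, KLF11, with 1.70, 0.821 and 12.0 FPKM, was higher than both.

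**Figure D4:**
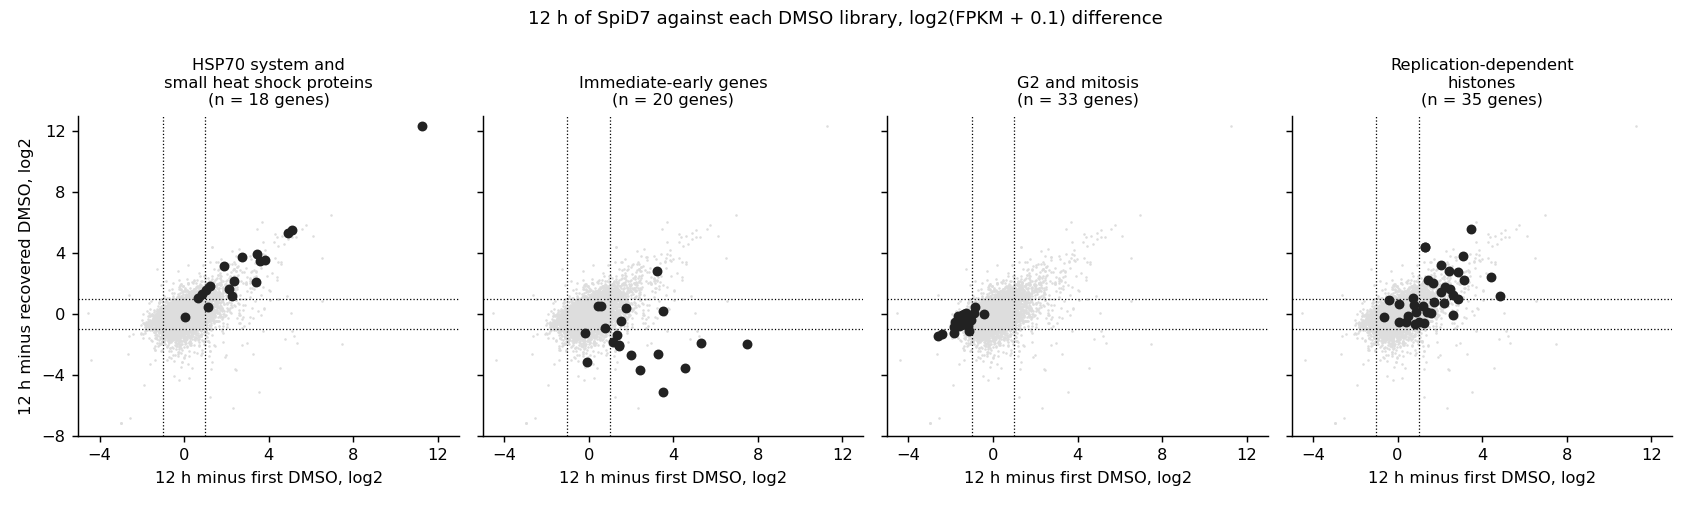
Log2(FPKM + 0.1) difference of 12 h minus the first DMSO library (horizontal) against 12 h minus the recovered DMSO library (vertical), with 1 point per gene, list members in black, all other genes in grey and dotted lines at 2-fold. Heat shock genes and histones extend to the upper right, mitotic genes to the lower left, and immediate-early genes to the lower right, where the baselines disagree.

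Of the cell cycle lists, that of G2 and mitosis had the lowest median. Against the first DMSO library 30 of 33 were past 2-fold lower, and 29 of 33 were below both DMSO libraries by any amount, with 0 above both. The median was −1.49 relative to the first DMSO library and −0.52 relative to the recovered library, which was itself 0.99 log2 units below the first in the median of this list. Only 4 (12.1%, against 0.776% of all genes compared) were past 2-fold against each. TOP2A, the topoisomerase that untangles chromosomes, was at 285 and 127 FPKM in DMSO, 160 FPKM at 6 h and 46.2 FPKM at 12 h. CDK1, the kinase that drives mitosis, was at 105 and 48.7 FPKM in DMSO, 72.6 FPKM at 6 h and 19.5 FPKM at 12 h. CENPF, of the kinetochore, went from 33.3 and 21.9 to 9.03 FPKM, and CDC25B, which activates CDK1, from 83.1 and 79.4 to 37.2 FPKM. Other mitotic genes lay nearer to the recovered library, as UBE2C with 345, 118 and 108 FPKM, and CDC20 was between with 240, 98.1 and 132 FPKM. In bulk RNA, fewer cells in a phase and less RNA in each cell cannot be told apart.

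Genes of DNA replication had a median of −0.87 on the first DMSO baseline and 0.07 on the recovered one, with 14 of 38 lower than the first and 0 called against both. Homologous recombination and Fanconi genes had −0.94 and 0.07, with 6 of 19 lower than the first and 0 called. FANCD2, at 17.2, 7.82 and 5.01 FPKM, was below both. Of 14 GADD45 genes, G1 cyclins and CDK inhibitors 4 (28.6%) were higher than both, against 3.4% of all genes compared. Of the 4, GADD45G was under 1 FPKM in the first DMSO library and reached the minimum only through the 12 h library. The list median was −0.15 on the first DMSO baseline and 0.43 on the recovered one, with 6 members above both by any amount and 3 below both. CCND1 was at 111, 57.6 and 71.5 FPKM and CDK4 at 123, 88.1 and 79.8 FPKM, and neither was called. GADD45G was at 0.160, 0.179 and 6.74 FPKM, GADD45A at 20.96, 40.9 and 181 FPKM, the CDK inhibitor p21 gene CDKN1A at 2.70, 11.02 and 24.0 FPKM and cyclin E1 CCNE1 at 9.25, 7.90 and 21.9 FPKM. The 19 p53 targets had CDKN1A and GADD45A as their 2 higher members and a median of 0.48 and 0.07.

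Few genes of cell death were called. The BCL2 family had a median of 0.29 and 0.20 with 8.33% called higher. Death receptors and caspases had 0.09 and −0.34 with 5.26% called higher, against 3.4% of all genes compared. Of 12 BCL2 family genes BCL2L11, which encodes the killer protein BIM, was called with 7.16, 7.51 and 18.7 FPKM. BBC3, the gene of PUMA, was at 0.850, 5.35 and 6.53 FPKM. Of 19 death receptors and caspases TNFRSF10D, a decoy receptor of TRAIL, was called with 14.5, 11.3 and 41.3 FPKM, while TNFRSF10B was at 15.99, 27.1 and 24.5 FPKM. TNFRSF12A, the most abundant of this list at 12 h, was at 279, 102 and 413 FPKM and was above both without passing 2-fold against the first library.

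Of 70 replication-dependent histone genes 35 reached the minimum, and 16 of these were higher than both and 0 lower. However, 15 of the 16 were under 1 FPKM in the first DMSO library and reached the minimum only through the 12 h library, so this count and the median say little about the family. The median was 1.57 and 0.98. The mRNAs of these genes are known to end in a stem-loop in place of a poly(A) tail. Their levels were low: HIST1H4C went from 0.344 FPKM and a listed 0 to 4.76 FPKM, HIST1H2BL from 0.527 and 0.292 to 5.31 FPKM and HIST1H2AM from 1.40 and 2.59 to 8.42 FPKM. HIST1H2BK, the most abundant, was at 107, 84.3 and 176 FPKM. Histone genes are near-identical within a class, so their reads may be split uncertainly. The linker histones H1F0 and H1FX lie outside the histone clusters and were set side by side after their values were seen. Both were lower than both DMSO libraries, with 208, 124 and 50.6 FPKM and with 90.8, 76.8 and 33.4 FPKM.

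Zinc finger genes named ZNF were the most numerous group among the higher genes. Of 328 that reached the minimum 49 were higher than both (14.9%, against 3.4% of all genes compared) and 0 were lower. By any amount 209 were above both. The 49 made up 12.4% of all genes called higher, and 6 of them were under 1 FPKM in the first DMSO library. The median was 0.33 and 0.51. ZNF841 went from 4.27 and 5.04 to 20.6 FPKM, ZNF280A from 1.08 and 1.97 to 8.75 FPKM and ZNF460 from 1.18 and 1.41 to 5.78 FPKM. Of the 49 genes 27 lie on chromosome 19, where large clusters of this family are known, and so did 134 of the 328. ZNF genes share similar repeats, so part of their reads may be uncertain.

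Developmental signalling genes were few but wide in range. DLL1, a ligand of Notch, was at 0.0799 and 0.0297 FPKM in DMSO and at 3.36 FPKM at 12 h, while the ligand JAG1 was at 7.35, 9.68 and 8.90 FPKM. Of 7 Notch ligands and receptors compared, a set looked at after the values were seen, DLL1 was the 1 called. The receptors NOTCH3 (2.42, 4.39 and 1.96 FPKM) and NOTCH4 (6.53, 13.2 and 5.13 FPKM) were below both by any amount. Of 9 Wnt, Notch and BMP targets 4 (44.4%, against 3.4% of all genes compared) were higher than both, HEY1 and AXIN2 only reaching the minimum through the 12 h library. The 4 were the Notch targets HEY1 (0.134, 0.262 and 2.35 FPKM) and NRARP (5.77, 7.15 and 21.1 FPKM), the Wnt target AXIN2 (0.2001, 0.852 and 2.90 FPKM) and BAMBI (3.9, 4.30 and 17.7 FPKM). HES1, another Notch target, was at 13.7, 26.6 and 14.6 FPKM. The transcription factor SOX8 went from 1.68 and 0.799 to 34.9 FPKM and SNAI1, a repressor of epithelial genes picked after its values were seen, from 6.44 and 12.9 to 49.7 FPKM. RRAD, a small GTPase that restrains calcium channels, was at 0.881, 6.75 and 88.7 FPKM. DLL1 and RRAD were under 1 FPKM in the first DMSO library and reached the minimum only through the 12 h library. HBEGF, a ligand of the EGF receptor, went from 17.1 and 28.8 to 68.7 FPKM and was the 1 of 8 EGF family genes called, and EGFR was at 59.1, 33.3 and 30.1 FPKM.

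Among falls outside the cell cycle, the acute phase gene SAA1 was at 5.51 and 109 FPKM in DMSO and at 0.863 FPKM at 12 h. SAA2, SAA2-SAA4 and SAA4 were listed with the same values, 2.102, 40.1 and 0.180 FPKM, so these cannot be told apart. The 6 h library held 5.54 FPKM of SAA1 and 1.14 FPKM of SAA2. Of 18 interferon-stimulated genes OAS3, which senses double-stranded RNA, was lower than both with 4.14, 13.03 and 1.51 FPKM, and 11 were below both by any amount. The list median was −0.03 and −1.01, and the recovered DMSO library was 1.02 log2 units above the first. SAMHD1, a restriction factor outside the list and picked after its values were seen, went from 8.35 and 9.59 to 3.43 FPKM.

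Further falls came from genes of varied function. F2R, the thrombin receptor PAR1, had nearly the same level in both DMSO libraries, 134 and 135 FPKM, and 51.2 FPKM at 12 h, with 84.1 FPKM at 6 h. CLDN11, a tight junction protein, went from 68.9 and 64.9 to 30.8 FPKM. TXNIP, an alpha-arrestin that inhibits thioredoxin and glucose uptake, went from 65.8 and 93.6 to 28.5 FPKM, whereas its relative ARRDC3 went from 6.68 and 10.8 to 35.9 FPKM. They were the 2 called of 5 alpha-arrestins. Others picked after their values were seen were the growth factor PDGFC (27.4, 25.8 and 12.7 FPKM), the matrix protein TNC (28.6, 36.1 and 14.2 FPKM) and the metabolic enzyme CYP1B1 (20.8, 41.1 and 8.07 FPKM). TNFSF18, a ligand of the TNF family, was at 2.26, 15.6 and 0.529 FPKM and DMC1, a recombinase of meiosis, at 5.45, 5.32 and 0.773 FPKM. METTL12 had the largest log2 fall against the first DMSO library, −4.39, going from 53.9 and 20.7 to 2.48 FPKM, and −3.01 against the recovered one, where SAA2 was at −7.17, and the small nucleolar RNA gene SNORA57 inside it was listed with the same values.

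Large housekeeping groups changed little. The cytosolic ribosomal proteins had a median of 0.17 and 0.29 with 0 of 81 called, although 73 were above both DMSO libraries, and RPS2 was at 3051, 3087 and 4118 FPKM. Ribosome biogenesis genes had −0.39 and 0.61 with 0 of 24 called. Oxidative phosphorylation had −0.01 and −0.03, and its 1 called gene of 80 was COX6B2, at 0.812, 0.906 and 2.11 FPKM. COX6B2 reached the minimum only through the 12 h library. Glycolysis and hypoxia genes had −0.02 and −0.25, with ADM, the adrenomedullin gene (34.5, 41.8 and 135 FPKM), called among 24. The SR splicing factors and CLK kinases had −0.07 and 0.05, and the kinase CLK1 alone was called with 22.6, 25.5 and 102 FPKM. The YAP and TGF-beta targets had 0.14 and −0.29 with 0 of 16 called.

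Fewer of the falls than of the rises were present at earlier times. Of the 395 genes higher than both at 12 h, 74 were already past 2-fold above both DMSO libraries at 2 h (the first 2 h library) and 251 at 6 h, and of the 90 lower genes 2 and 7 were past 2-fold below both at these times. The 12 h library held the highest of the 3 SpiD7 values for 281 of the 395 genes and the lowest for 88 of the 90. Since 12 h chose these genes, that share is a description. Between 6 h and 12 h, 38 of the higher genes were up more than 2-fold further and 25 of the lower genes were down more than 2-fold further. CCL26, MMP1 and MMP10 had the largest of these late steps, 2.94, 2.90 and 2.78 log2 units, and SAA1, CDK1 and TOP2A differed by −2.55, −1.89 and −1.79. CHAC1 went the other way and was 1 of 2 higher genes at less than 50% of their 6 h level.

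The called genes differed in structure from the genes compared. Since 135 of the 395 higher genes reached the minimum only through the 12 h library, this is a description. Genes higher than both spanned a median of 14.9 kb with a median of 5 exons, against 29.5 kb and 9 exons over all genes compared and 34.3 kb and 12.5 exons for those lower than both. By GENCODE v29, 30 of 394 higher genes with an exon count (7.61%) had a single exon, as had 3 of 90 lower genes (3.33%) and 1.81% of all. These include histones and HSP70 genes, and 15 of the 16 called histones reached the minimum only through the 12 h library. Of the higher genes 13.2% lie on chromosome 19, of the lower genes 2.22% and of all genes compared 7.07%. Of the 52 higher genes there, 27 are the ZNF genes counted above. Of the 395 higher genes 12 were listed at 0 in a library and 12 shared all values with another symbol, as INS, INS-IGF2 and IGF2 did with 1.77, 1.19 and 9.67 FPKM, so the transcript behind those 3 symbols is uncertain. Among the 90 lower genes 6 shared all values with another symbol.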

How the data were processed

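RNA from OVCAR5 cells treated with DMSO (2 libraries) or SpiD7 (2 libraries at 2 h, 1 at 6 h and 1 at 12 h) was sequenced. The authors deposited FPKM values per gene and comparison, estimated with Cufflinks 2.1.1 and Cuffdiff 2.1.1 after trimming with Trim Galore and alignment with TopHat2 2.0.8, as the submitters' processing notes list. Loci in the deposited tables are on hg38, while the methods name a mouse build. Columns of log2 fold changes, p-values and q-values were left out, and 0 value columns lacked a sample or group. The deposited values hold no read count per library, and the methods state only an approximate range of reads for each sample. No interval is given.

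Rows of a symbol were summed, and 1 row without a gene was dropped. The 2 h and 6 h libraries were brought to the scale of the 12 h comparison through the first DMSO library, and the 12 h library was compared with each DMSO library as log2(FPKM + 0.1) (Python 3.11.15, pandas 2.3.3, numpy 2.4.6, matplotlib 3.10.9). The scripts were tested on simulated data. Protein-coding status, positions and promoters were from RefSeq (GRCh38.p14), and exon counts from GENCODE v29. Genes past 2-fold against both DMSO libraries were called. Named were the 15 largest log2 rises and falls among called genes above 0 in all 3 libraries, the 8 largest in FPKM units, up to 3 genes at each end of 44 lists with the most abundant member, and genes the study names. Other genes named were chosen after their values were seen. Results for a few genes are not reported here. The members and lists were chosen with earlier results of these data known. Alternatives were pseudocounts of 1 and 0.01, a minimum of 5 FPKM or none, median-ratio scaling, the largest row of a symbol, and each other DMSO baseline.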

Additional observations from a re-analysis of the deposited data

How the results depend on the processing

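With 1 library at 12 h and no read counts in the files, counts depended on the low-value minimum. Genes higher than the first DMSO library numbered 411 at 5 FPKM and 1898 with no minimum, genes higher than both 198 and 999, and genes lower than both 39 and 161, as fewer or more genes were compared. With a pseudocount of 1, 32 genes were lower than both. Without DMSO replicate 1, and so against the recovered library, 746 genes were higher and 698 lower. The other counts stayed within 1.5 times.

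Of 7 lists with a median past 2-fold, 2 changed sign against the DMSO mean and without DMSO replicate 1: immediate-early genes (−0.93 and −1.89) and cytokines (−0.50 and −1.17). Of 137 named genes past 2-fold, these did so too: ATF3 (−0.66 and −1.64), DUSP1 (−0.16 and −1.10), EGR1 (−1.63 and −2.61), FOS (−0.93 and −1.92), FOSB (−0.94 and −1.94), IL8 (−5.20 and −6.19), NR4A1 (−2.53 and −3.52) and TNFAIP3 (−1.88 and −2.83), and, without replicate 1 alone, CEBPB (−0.17) and WIPI1 (−0.33). Of the 37 other lists 10 changed sign against the mean and 16 without replicate 1, and of the 33 other named genes 5 and 10. The cause was not tested. No paired analysis was possible because the 12 h group is 1 library and no test was run.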
